A study of Mus musculus with 235 samples.

Results

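The dorsal dentate gyrus (dDG) is the upper end of the dentate gyrus, the layer of granule neurons through which cortical input enters the hippocampus. Its response to dexamethasone, a synthetic glucocorticoid, was read from 30 of the 235 RNA libraries of the series, which are all those whose count column names dDG. The mice were adult male C57Bl/6 animals aged 3 months. A single intraperitoneal dose of dexamethasone (10 mg/kg) was given to 15 of them and 0.9% saline, the vehicle, to the other 15, for 4 h. The labels name no genetic alteration in either arm. Brains were perfused and frozen, dDG was punched from coronal sections, and each library comes from 1 mouse. A punch takes in whatever lies within it, including glia, vessels and any choroid plexus beside the hippocampus.

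Glucocorticoids act by binding the glucocorticoid receptor, which chaperones hold in the cytoplasm until hormone arrives. The loaded receptor enters the nucleus, binds short palindromic DNA elements and raises the transcription of genes such as those of its own feedback inhibitor Fkbp5 and the kinase Sgk1, while it lowers others, including inflammatory genes. In the dentate gyrus the receptor is found in granule neurons, glia and the neural stem cells that keep producing neurons in adult life. The choroid plexus, which secretes cerebrospinal fluid and makes transthyretin (Ttr) in very large amounts, lies in the ventricle beside the hippocampus.

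The dDG libraries held between 388915 and 1197849 counts, with a median of 650154. Levels are given in CPM, the deposited counts scaled to a shared library size by TMM, and differences as log2 fold changes of dexamethasone against vehicle. The spread between libraries holds counting error as well as differences between mice. RNA integrity was 6.08 ± 0.899 after dexamethasone and 5.95 ± 1.23 after vehicle (mean ± SD, n = 15 each), and neither it (p = 0.760) nor the library total (p = 0.623) passed a two-sided permutation test between arms (adjusted 0.760 for both). The dentate granule cell gene Prox1 spanned 65.7 to 914 CPM after vehicle, with a median of 439, and 65.9 to 653 CPM after dexamethasone, with a median of 476 in dDG. The 2 libraries with the replicate number 1, 1 of each arm, stood apart from the other 28. They held the least Prox1 (65.7 CPM after vehicle and 65.9 after dexamethasone), the least Dsp, a desmosome gene of granule cells (0 and 3.30 CPM), and the least C1ql2, a synaptic gene of the same cells (5.71 and 6.59 CPM). Their dentate level, the mean log2(CPM + 1) of the dentate granule cell list, was 3.63 and 3.18, whereas the lowest of the others was 4.93. Vehicle libraries labelled vCA1 had Prox1 from 44.8 to 162 CPM, so that these 2 punches lay within a range found outside the dentate gyrus, and results are also given without them. Vehicle libraries labelled dCA1 held as much Prox1 (median 523 CPM) as those labelled dDG (422 CPM in the same fit), and the CA1 genes gave similar medians, with Fibcd1 slightly higher (41.0 against 39.0 CPM) and Wfs1 slightly lower (35.3 against 42.4 CPM) in dCA1. These markers therefore did not separate the 2 dorsal punches, whereas the Prox1 median was higher in vDG (194 CPM) than in vCA1 (105 CPM).

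Choroid plexus RNA set some dDG libraries apart before any treatment effect was considered. Ttr spanned 36.4 to 11250 CPM after vehicle, with a median of 1268, and 28.0 to 13174 CPM after dexamethasone, with a median of 249.6, a 470-fold range over the 30 libraries. It reached 1000 CPM in 8 vehicle libraries and 3 dexamethasone libraries, and stayed under 100 CPM in 5 vehicle and 6 dexamethasone libraries. The dexamethasone library with the replicate number 10 had the most Ttr, and 17 of the 18 listed choroid plexus genes were also highest in it. Counts are therefore also given without the 11 libraries of at least 1000 CPM Ttr, here called Ttr-rich, which leaves 12 dexamethasone and 7 vehicle libraries and thus also fewer mice per test.

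The first question was which genes differed between the arms. By edgeR's quasi-likelihood test with Benjamini-Hochberg adjustment over all genes tested, 316 of 8548 genes (3.70%) passed an adjusted p of 0.05 after dexamethasone. Of these, 199 rose (2.33% of the genes tested) and 117 fell (1.37%), and the median log2 fold change of all tested genes was 0.00097. Most responses were moderate: the median size was 1.55-fold, and 51 of the 316 exceeded 1 on the log2 scale (32 risers and 19 fallers). An unadjusted p under 0.05 by edgeR was found for 1097 of the 8548 genes. Within each of the 4 library plates, at least 98.7% of the 316 genes moved in the same direction as over all libraries. Without the 11 Ttr-rich libraries 166 of 8960 genes passed, 129 higher and 37 lower, and 133 of them were among the 316. List counts given below without these libraries stand beside those 129 and 37 of 8960 genes. All of the 315 that could be compared kept their direction. Without the 2 libraries of low dentate level, 353 of 8635 genes passed, 199 higher and 154 lower, 292 of them among the 316, and all of the 316 kept their direction. The 316 genes were called on these same libraries, so that their direction within plates or left-out fits is not independent evidence.

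**Figure D1:**
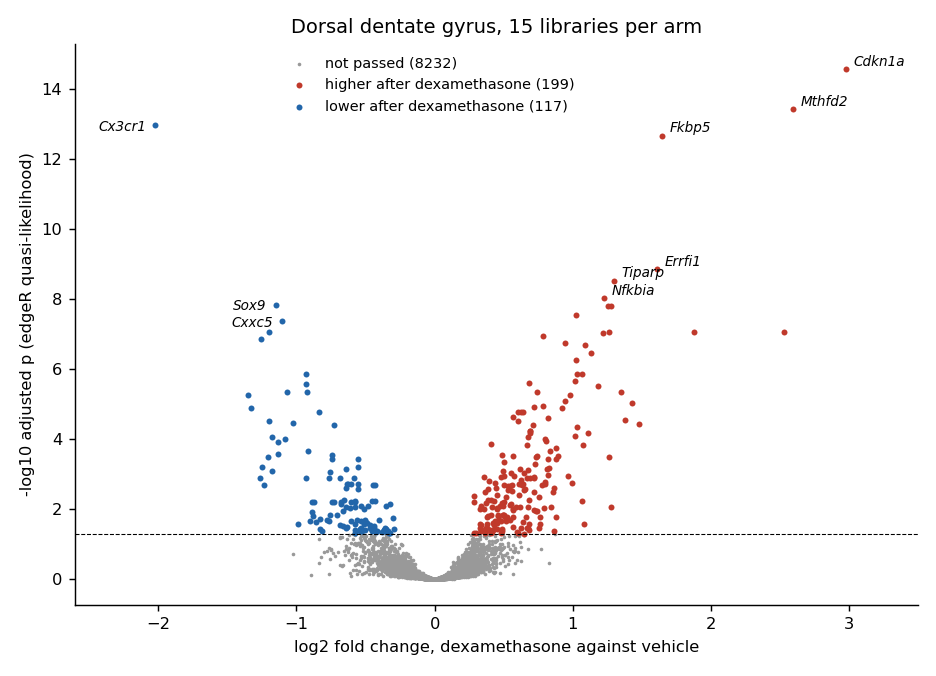
Each dot is 1 of 8548 genes in dorsal dentate gyrus, with its log2 fold change (x axis, dexamethasone against vehicle, 15 libraries per arm) and the -log10 of its adjusted p from edgeR (y axis); the dashed line marks an adjusted p of 0.05. Cdkn1a, Mthfd2 and Fkbp5 stand at the upper right among 199 genes higher after dexamethasone, and Cx3cr1 stands alone at the upper left among 117 lower genes.

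The strongest riser was Cdkn1a (ENSMUSG00000023067, mm10 chr17:29090979-29100722, plus strand), the gene of a cyclin-dependent kinase inhibitor that halts the cell cycle. It ranged over 26.0 to 78.7 CPM after vehicle, with a median of 41.1, and 209 to 580.3 CPM after dexamethasone, with a median of 328. Every dexamethasone library lay above every vehicle library, and the log2 fold change was 2.97 ± 0.17 (SE; 7.86-fold; edgeR adjusted p 2.77e-15). Mthfd2 (ENSMUSG00000005667, chr6:83305691-83325908, minus strand), which encodes a mitochondrial enzyme of folate metabolism, ranged over 3.35 to 17.7 CPM after vehicle, with a median of 11.0, and 45.2 to 121 CPM after dexamethasone, with a median of 60.3. Its arms did not overlap either, and it rose by 2.59 ± 0.17 (SE, edgeR adjusted p 3.79e-14). The strongest faller was Cx3cr1 (ENSMUSG00000052336, chr9:119901616-120068283, minus strand), the fractalkine receptor of microglia. It ranged over 74.7 to 204 CPM after vehicle, with a median of 144, and 20.5 to 53.4 CPM after dexamethasone, with a median of 38.2. All dexamethasone libraries lay below all vehicle libraries, and the log2 fold change was -2.02 ± 0.14 (SE, edgeR adjusted p 1.09e-13). In bulk tissue, fewer cells of a type and less RNA per cell cannot be told apart. Such full separation of the arms occurred for 9 of the 8548 genes (0.105%), 8 higher after dexamethasone (0.0936%) and 1 lower (0.0117%). The others were Fkbp5, Errfi1, Tiparp, Trp53inp1, Ms4a6b and Hacd2, of which Hacd2, a gene of very long chain fatty acid synthesis, was named after its values were seen. For 5 of these 6, all but Fkbp5, the arms nearly touched: the lowest library of the higher arm exceeded the highest of the other by 4.40% or less, and for Trp53inp1 both stood at 41.1 CPM.

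Genes known as direct or early glucocorticoid targets rose as a group. Of 20 listed genes 16 were tested, 14 rose and 0 fell, against 2.33% of all tested genes that rose, and the median log2 fold change of the 16 was 0.81. The list was chosen with results of these libraries known, so that its direction is not independent evidence. Fkbp5 (ENSMUSG00000024222, chr17:28399095-28517524, minus strand), a co-chaperone that lowers the receptor's affinity for hormone, ranged over 20.1 to 51.0 CPM after vehicle, with a median of 33.5, and 88.6 to 146 CPM after dexamethasone, with a median of 103. The arms were fully separated, and the rise was 1.65 ± 0.12 (SE, 3.13-fold, edgeR adjusted p 2.17e-13). Tsc22d3 (ENSMUSG00000031431, chrX:140539528-140600659, minus strand), the glucocorticoid-induced leucine zipper gene, ranged over 58.6 to 129 CPM after vehicle, with a median of 82.8, and 113 to 282 CPM after dexamethasone, with a median of 199. Of the dexamethasone libraries, 14 of 15 exceeded the highest vehicle library, and the log2 fold change was 1.25 ± 0.13 (SE, edgeR adjusted p 1.55e-08). Sgk1 (ENSMUSG00000019970, chr10:21882184-21999903, plus strand), a kinase that regulates ion channels and transporters, ranged over 40.7 to 156 CPM after vehicle, with a median of 80.0, and 68.4 to 231 CPM after dexamethasone, with a median of 148. Here the arms overlapped widely, with 5 dexamethasone libraries above the vehicle range, and the log2 fold change was 0.64 ± 0.17 (SE, edgeR adjusted p 0.0236). Without the Ttr-rich libraries the Sgk1 value was 1.15 (edgeR adjusted p 5.48e-04), and without the 2 libraries of low dentate level it was 0.60 (edgeR adjusted p 0.0510), which leaves 13 risers in the list. It also missed the threshold both with counts thinned to a common total and without the libraries of RNA integrity under 5.

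The other risers of the list included the metallothioneins, zinc-binding proteins of which Mt2 went from 621 to 1059.5 CPM and Mt1 from 1258 to 1816 CPM (medians of 15 libraries). Their log2 fold changes were 0.79 ± 0.09 and 0.56 ± 0.09 (SE, edgeR adjusted p 1.11e-07 and 2.34e-05). Plin4, a coat protein of lipid droplets, was near the detection limit after vehicle, at 0 to 20.0 CPM, and reached 9.53 to 62.6 CPM after dexamethasone, which was a log2 fold change of 2.53 ± 0.29 (SE, edgeR adjusted p 8.91e-08). Ddit4, an inhibitor of the mTOR kinase complex, and Errfi1, an inhibitor of the EGF receptor, rose by 1.28 and 1.61 on the log2 scale. The transcription factor genes Zbtb16 (0.82) and Klf9 (0.36), the phosphatase gene Dusp1 (0.80) and the phagocytic receptor gene Mertk (0.50) rose less. Mertk passed in 17 of 19 alternative fits. Without the libraries of RNA integrity under 5, 12 members rose, Mertk and Sgk1 being lost. Gjb6, an astrocyte connexin, and the clock gene Per1 were the 2 tested members that did not pass, at 0.35 ± 0.15 and 0.19 ± 0.14 (SE, edgeR adjusted p 0.251 and 0.692). When the Ttr-rich libraries were left out 12 members rose, and Klf9 (0.32, edgeR adjusted p 0.0519) and Zbtb16 (0.68, edgeR adjusted p 0.0623) no longer passed.

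**Figure D2:**
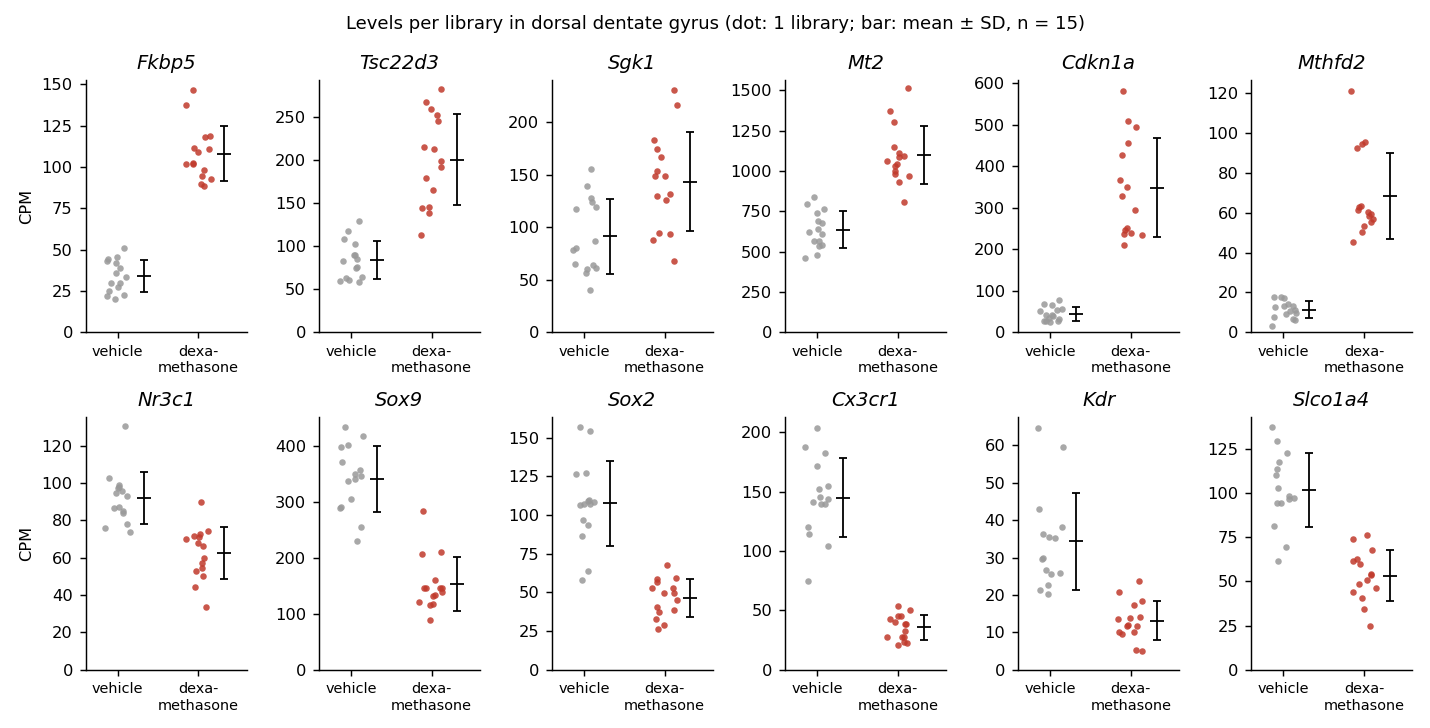
Each dot is the level of a gene in 1 dorsal dentate gyrus library (y axis, CPM), with vehicle in grey and dexamethasone in red, and the bars give the mean ± SD of 15 libraries. Fkbp5, Cdkn1a and Mthfd2 rise without overlap and Cx3cr1 falls without overlap, whereas the arms of Sgk1 and Nr3c1 overlap.

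Promoters of the risers were searched for the receptor's binding element because many of its known targets rose together. The sequences are those of RefSeq on GRCm38.p6, from 250 bases before to 50 bases after each annotated transcript start, so that a gene with several starts has several windows, and they were found for 161 of the 199 risers and 86 of the 117 fallers. The full palindrome, AGAACA and TGTTCT with any 3 bases between them, occurs in 3 of 27025 genes' promoters (0.0111%). Sgk1 is the only one of these genes that was tested in dDG. A looser form, GNACA and TGTNC with any 3 bases between them (N is any base), lies within the full one and was chosen after the values were seen. It occurs in 5 of the 161 risers (3.11%), in 0 of the 86 fallers, in 0.369% of the 6784 tested genes with a promoter and in 0.537% of all. Both forms are their own reverse complement, so that 1 search covers both strands. The 5 risers are shown as the members whose promoters hold a match, with the match in capitals and the strand of the gene read 5′ to 3′.
Sgk1, chr10:21993640-21993939, plus strand: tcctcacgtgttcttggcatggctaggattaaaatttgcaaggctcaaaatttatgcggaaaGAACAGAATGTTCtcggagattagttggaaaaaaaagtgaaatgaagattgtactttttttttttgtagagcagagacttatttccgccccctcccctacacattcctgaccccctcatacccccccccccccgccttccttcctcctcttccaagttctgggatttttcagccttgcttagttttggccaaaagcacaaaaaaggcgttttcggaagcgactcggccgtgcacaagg
Mt1, chr8:94178839-94179138, plus strand: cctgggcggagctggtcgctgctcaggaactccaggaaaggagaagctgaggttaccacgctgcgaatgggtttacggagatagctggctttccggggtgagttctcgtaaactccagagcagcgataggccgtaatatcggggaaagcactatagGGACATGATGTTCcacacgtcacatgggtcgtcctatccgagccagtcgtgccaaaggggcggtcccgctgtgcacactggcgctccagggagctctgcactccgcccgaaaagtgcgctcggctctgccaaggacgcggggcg
Txnip, chr3:96557707-96558006, plus strand: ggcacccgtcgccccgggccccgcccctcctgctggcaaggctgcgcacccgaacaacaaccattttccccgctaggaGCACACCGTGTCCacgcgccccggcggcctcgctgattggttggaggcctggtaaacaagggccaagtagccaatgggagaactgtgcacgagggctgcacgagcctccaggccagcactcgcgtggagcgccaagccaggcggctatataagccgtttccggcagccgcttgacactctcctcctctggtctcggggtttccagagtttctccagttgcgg
Fam107a, chr14:8309730-8310029, minus strand: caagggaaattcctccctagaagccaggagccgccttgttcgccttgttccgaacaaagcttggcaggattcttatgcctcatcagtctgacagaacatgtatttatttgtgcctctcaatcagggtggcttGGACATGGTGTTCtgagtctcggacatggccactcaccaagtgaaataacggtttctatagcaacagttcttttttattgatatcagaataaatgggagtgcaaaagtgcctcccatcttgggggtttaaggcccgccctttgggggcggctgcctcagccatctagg
Tinagl1, chr4:130174753-130175052, minus strand: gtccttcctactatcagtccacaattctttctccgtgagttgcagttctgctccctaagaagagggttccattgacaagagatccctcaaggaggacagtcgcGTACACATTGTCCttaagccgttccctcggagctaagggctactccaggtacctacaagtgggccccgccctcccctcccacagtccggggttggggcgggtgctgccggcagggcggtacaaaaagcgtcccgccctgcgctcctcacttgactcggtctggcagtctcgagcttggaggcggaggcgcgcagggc

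In these windows the match lies 188 to 176 bases before the start of 1 Sgk1 transcript, which lies inside the gene's span, 94 to 82 bases before that of Mt1, and 172 to 160 bases before that of Txnip. A match describes the letters in this window and is not evidence of binding, and elements outside the windows were not searched. The Fam107a and Tinagl1 windows likewise belong to starts inside the gene. Txnip, an inhibitor of thioredoxin and of glucose uptake, went from 32.3 to 58.9 CPM (medians) with a log2 fold change of 0.88 ± 0.23 (SE, edgeR adjusted p 0.0162). Fam107a, an actin-associated stress-response gene, went from 185 to 266 CPM and rose by 0.41 ± 0.09 (SE, edgeR adjusted p 0.00531), but its adjusted p was 0.0737 by edgeR without the Ttr-rich libraries. Tinagl1, which encodes a basement membrane protein, rose by 0.86 ± 0.25 (SE, edgeR adjusted p 0.0406), but missed the threshold without the libraries of low dentate level (0.82, edgeR adjusted p 0.0712). These 3 genes were named for their match, after their values were seen.

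The receptor itself was lower at the level of its RNA. Nr3c1 (ENSMUSG00000024431), which encodes the glucocorticoid receptor, ranged over 73.6 to 130.4 CPM after vehicle, with a median of 92.8, and 33.7 to 90.0 CPM after dexamethasone, with a median of 66.4. Of the dexamethasone libraries, 13 of 15 lay below the lowest vehicle library, and the log2 fold change was -0.55 ± 0.10 (SE, edgeR adjusted p 3.71e-04). It was the single gene to pass among 16 tested receptors and chaperones (median log2 fold change -0.07), which is 6.25% beside 3.70% of all tested genes. The mineralocorticoid receptor gene Nr3c2, whose product binds the natural hormone with higher affinity, was at -0.23 ± 0.13 (SE, edgeR adjusted p 0.518). The heat shock protein genes Hsp90aa1 (-0.06) and Hsp90ab1 (0.03), the co-chaperone gene Fkbp4 (-0.19) and Hsd11b1 (-0.26), whose enzyme regenerates active hormone within cells, did not pass.

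Of 17 tested clock genes 0 rose and 3 fell, beside 2.33% and 1.37% of all tested genes. The fallers were the clock output factor Dbp (-0.50 ± 0.13), the nuclear receptor gene Rorb (-0.53 ± 0.15) and the repressor gene Bhlhe41 (-0.37 ± 0.11) (log2 fold change ± SE; edgeR adjusted p 0.0201, 0.0337 and 0.0384). Of these only Dbp passed without the Ttr-rich libraries (-0.62, edgeR adjusted p 0.0279). Without the libraries of low dentate level Bhlhe41 missed the threshold (-0.35, edgeR adjusted p 0.0552). With the replicate number as a block Per3 (0.51, edgeR adjusted p 0.00594) and Rora (0.31, edgeR adjusted p 0.0167) also passed, as risers, beside 3.77% of all genes in that fit.

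In the lists of growth and stress signalling some members rose and most did not pass, beside 2.33% risers and 1.37% fallers among all tested genes. Of 15 tested genes of the p53 response and cell cycle, 5 rose and 0 fell, with a list median of 0.01. When the block was used 5 rose and 2 fell, beside 3.77% and 2.59% of all genes in that fit, the fallers being the cyclin genes Ccnd1 (-0.51, edgeR adjusted p 0.0207) and Ccnd2 (-0.39, edgeR adjusted p 0.0315). Beside Cdkn1a the risers were Trp53inp1, a p53-induced gene of cell death and autophagy, Gadd45g, a growth arrest gene, the cyclin gene Ccng1, and Sesn1, a stress-induced inhibitor of mTOR. Trp53inp1 ranged over 9.74 to 41.1 CPM after vehicle, with a median of 25.1, and 41.1 to 81.0 CPM after dexamethasone, with a median of 56.1. The highest vehicle library and the lowest dexamethasone library were level at 41.1 CPM, and it rose by 1.22 ± 0.14 (SE, edgeR adjusted p 9.24e-08). Gadd45g went from 25.1 to 52.1 CPM after vehicle to 51.0 to 87.3 CPM after dexamethasone, with 12 dexamethasone libraries above the vehicle range (1.02 ± 0.11, SE, edgeR adjusted p 2.77e-08). Ccng1 and Sesn1 rose by 0.88 and 0.45 on the log2 scale and Trp53, which encodes p53 itself, was at 0.01 ± 0.17 (SE, edgeR adjusted p 0.997). All but Sesn1 of the 5 passed without the Ttr-rich libraries, which makes 4.

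Of 21 tested genes of insulin, FoxO and mTOR signalling, 3 rose and 1 fell, beside 2.33% and 1.37% of all tested genes, and 11 of the 21 values were below 0 (list median -0.05). The 2 insulin receptor substrate genes went in opposite directions. Irs2 ranged over 81.4 to 224 CPM after vehicle, with a median of 134, and 170.1 to 311 CPM after dexamethasone, with a median of 241. It rose by 0.74 ± 0.10 (SE, edgeR adjusted p 4.60e-06), with 8 dexamethasone libraries above all vehicle libraries. Irs1 went from a median of 42.9 to 28.2 CPM and fell, at -0.51 ± 0.14 (SE, edgeR adjusted p 0.0255), but at -0.54 without the Ttr-rich libraries its adjusted p was 0.118 by edgeR, and 2 of the list rose and 0 fell. Of 12 tested feedback genes of the MAPK pathway, 4 rose and 1 fell, against the same 2.33% and 1.37%. The risers were Errfi1, the phosphatase genes Dusp1 and Dusp14 (0.66) and Rasd1 (1.00), a small GTPase first described as induced by dexamethasone. Spry2, an inhibitor of growth factor signalling, fell from a median of 94.3 to 58.4 CPM (-0.74 ± 0.13, SE, edgeR adjusted p 2.87e-04). Without the Ttr-rich libraries 3 rose and 1 fell, Dusp14 being lost (0.59, edgeR adjusted p 0.258).

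Among 12 tested genes of NF-kB and cytokine signalling, 4 rose and 2 fell (list median 0.12), beside 2.33% and 1.37% of all tested genes. Nfkbia, which encodes the inhibitor that keeps NF-kB in the cytoplasm, ranged over 92.1 to 253 CPM after vehicle, with a median of 147, and 224 to 478 CPM after dexamethasone, with a median of 389. Of the dexamethasone libraries 13 lay above the vehicle range, and the log2 fold change was 1.23 ± 0.13 (SE, edgeR adjusted p 9.40e-09). Zfp36 and Zfp36l1 encode related proteins that bind and destabilise messenger RNA. Zfp36 rose from a median of 12.1 to 31.7 CPM (1.38 ± 0.21, SE, edgeR adjusted p 2.86e-05), whereas Zfp36l1 fell from 84.8 to 39.9 CPM (-0.93 ± 0.13, SE, edgeR adjusted p 2.67e-06). The interleukin receptor genes Il1r1 (0.76) and Il6ra (0.78) rose and the shared signalling subunit gene Il6st (-0.42) fell, but without the Ttr-rich libraries none of these 3 passed (edgeR adjusted p 0.237, 0.0515 and 0.879). In the fit with the replicate block 5 of the list rose, adding the transcription factor gene Cebpb (0.48, edgeR adjusted p 0.0152), and 2 fell, beside 3.77% and 2.59% of all genes in that fit. Of 9 tested interferon and antigen presentation genes 0 passed by edgeR, with an unadjusted p under 0.05 for 1 that was higher and 4 that were lower, and 1 passed with the replicate block, Znfx1 (0.49). Over all tested genes 1097 of 8548 had an unadjusted p under 0.05 by edgeR.

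**Figure D3:**
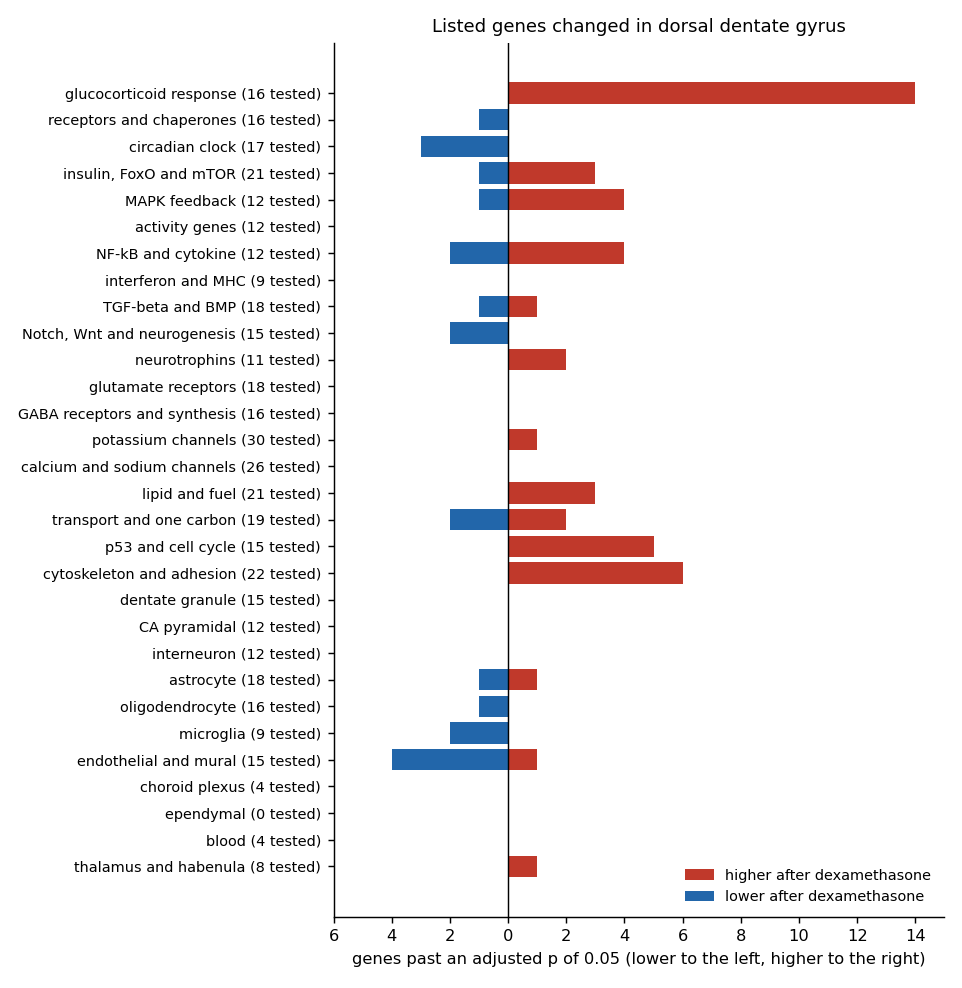
Bars count the genes of each list that passed an adjusted p of 0.05 by edgeR in dorsal dentate gyrus, with risers in red to the right and fallers in blue to the left, and the number tested beside each name. The glucocorticoid response list has 14 risers of 16 tested, and the endothelial and mural list has the most fallers, 4 of 15.

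Sox9, Sox2, Sox21 and Id3 were among the 15 fallers with the smallest p, and they came from different lists or none. Sox9 (ENSMUSG00000000567, chr11:112782224-112787760, plus strand), expressed in stem cells and astrocytes, ranged over 229 to 434 CPM after vehicle, with a median of 347, and 88.3 to 284 CPM after dexamethasone, with a median of 146. Of the dexamethasone libraries 14 of 15 lay below the vehicle range, and the log2 fold change was -1.15 ± 0.12 (SE, edgeR adjusted p 1.46e-08). Sox2 (ENSMUSG00000074637, chr3:34650405-34652461, plus strand), a gene of stem cell maintenance, ranged over 57.8 to 157 CPM after vehicle, with a median of 107, and 26.3 to 67.4 CPM after dexamethasone, with a median of 49.5. The arms overlapped little, with 12 dexamethasone libraries below all vehicle libraries, and it fell at -1.20 ± 0.14 (SE, edgeR adjusted p 8.91e-08). Sox21, a repressor that works against Sox2 targets, fell from a median of 28.5 to 11.7 CPM (-1.33 ± 0.20, SE, edgeR adjusted p 1.33e-05). Hes5, a Notch target that holds progenitors undifferentiated, fell from 28.3 to 11.7 CPM (-1.18 ± 0.20, SE, edgeR adjusted p 8.55e-05). Id3, a BMP target that inhibits differentiation factors, fell from 193 to 74.2 CPM (-1.20 ± 0.19, SE, edgeR adjusted p 2.98e-05).

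Of 15 tested genes of the Notch, Wnt and neurogenesis list, 0 rose and 2 fell, beside 2.33% and 1.37% of all tested genes. The fallers were Hes5 and Sox2 (list median -0.16), both also without the Ttr-rich libraries. Of 18 tested TGF-beta and BMP genes, 1 rose and 1 fell, 1 gene each way beside 2.33% and 1.37% of all tested genes. Smad1, a signal transducer of BMP receptors, rose from a median of 34.6 to 55.9 CPM (0.79 ± 0.12, SE, edgeR adjusted p 1.09e-05) while Id3 fell, and 16 of the 18 values were below 0 (list median -0.17). With the block Id2, a gene related to Id3, fell too (-0.33, edgeR adjusted p 0.00516), where 2.59% of all genes fell. Other strong fallers with roles in signalling or adhesion were Cxxc5, a zinc finger gene (-1.10 ± 0.12), Cbfa2t3, a transcriptional co-repressor (-1.25 ± 0.15), Ptch1, the hedgehog receptor (-1.03 ± 0.16), Tnfrsf19, a receptor of the tumour necrosis factor family (-0.84 ± 0.13), Itga6, a laminin receptor subunit (-0.92 ± 0.13), and Vwa1, an extracellular matrix gene (-1.07 ± 0.15), as log2 fold changes ± SE. Their edgeR adjusted p lay at 3.41e-05 or below. Of these 6, Ptch1 did not pass without the Ttr-rich libraries (-0.68, edgeR adjusted p 0.114).

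Of 15 tested endothelial and mural genes 4 fell and 1 rose, beside 1.37% and 2.33% of all tested genes, and the list median was -0.41, against 0.00097 for all genes. Kdr (ENSMUSG00000062960, chr5:75932827-75978458, minus strand), the main signalling receptor for VEGF, ranged over 20.4 to 64.6 CPM after vehicle, with a median of 30.0, and 4.94 to 23.8 CPM after dexamethasone, with a median of 12.1. Of the dexamethasone libraries 13 lay below the vehicle range, and the log2 fold change was -1.35 ± 0.19 (SE, edgeR adjusted p 5.64e-06). Flt1, the other endothelial VEGF receptor, fell from a median of 147 to 84.6 CPM (-0.73 ± 0.12, SE, edgeR adjusted p 3.82e-05). Slco1a4, an organic anion transporter of the blood-brain barrier, fell from 98.1 to 53.4 CPM (-0.93 ± 0.12, SE, edgeR adjusted p 1.41e-06), and Itm2a fell by a smaller amount (-0.56 ± 0.15, SE, edgeR adjusted p 0.0203). Slc2a1, the glucose transporter of endothelium and astrocytes, rose from 93.6 to 175 CPM, with 14 dexamethasone libraries above the vehicle range (1.03 ± 0.14, SE, edgeR adjusted p 1.33e-06). Mfsd2a, a lipid transporter of the same barrier, also rose, from 26.9 to 68.0 CPM (1.26 ± 0.14, SE, edgeR adjusted p 8.91e-08). In the absence of the Ttr-rich libraries Itm2a did not pass (-0.63, edgeR adjusted p 0.148) and the organic anion transporter gene Slco1c1 did (-0.69, edgeR adjusted p 0.0465), so that again 1 rose and 4 fell. With the block 1 rose and 5 fell, beside 3.77% and 2.59% of all genes in that fit, Slco1c1 being the gene added (-0.83, edgeR adjusted p 0.0197). The summed level of the endothelial and mural list was 739.8 to 1298 CPM after vehicle (median 1059.6) and 618 to 1172 CPM after dexamethasone (median 912), and the arms overlapped. Blood genes moved with neither arm past the threshold (0 of 4 tested, 0 at an unadjusted p under 0.05 by edgeR, and 0 with the replicate block).

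Of 9 tested microglia genes 2 fell and 0 rose, beside 1.37% fallers among all tested genes, and all 9 values were below 0 (list median -0.30). Beside Cx3cr1 this was P2ry12, the purinergic receptor of resting microglia, which fell from a median of 32.4 to 15.2 CPM (-0.91 ± 0.16, SE, edgeR adjusted p 2.21e-04). Without the Ttr-rich libraries Cx3cr1 passed (-2.07, edgeR adjusted p 5.95e-08) and P2ry12 did not pass (-0.59, edgeR adjusted p 0.246). With the replicate block C1qc, a complement gene, also passed (-0.47, edgeR adjusted p 0.0218), which makes 3 fallers beside 2.59% of all genes in that fit. The summed level of the list was 499 to 884 CPM after vehicle (median 709) and 341 to 621 CPM after dexamethasone (median 488), so that the arms overlapped. Ms4a6b, a gene of a family of membrane proteins, went the other way and ranged over 1.58 to 16.3 CPM after vehicle, with a median of 6.43, and 16.4 to 45.0 CPM after dexamethasone, with a median of 26.4. Its arms nearly touched, at 16.3 CPM in the highest vehicle library and 16.4 CPM in the lowest dexamethasone library, and it rose by 1.88 ± 0.22 (SE, edgeR adjusted p 8.91e-08).

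Oligodendrocyte genes varied widely between punches, with a summed level of 2375 to 8866 CPM after vehicle (median 5344) and 2163 to 10282 CPM after dexamethasone (median 3623). Of 16 tested, 1 fell, beside 1.37% of all tested genes. This was Sox10, the lineage transcription factor, which ranged over 23.8 to 109 CPM after vehicle, with a median of 52.1, and 12.2 to 50.2 CPM after dexamethasone, with a median of 21.1. The arms overlapped, and the log2 fold change was -1.17 ± 0.23 (SE, edgeR adjusted p 8.25e-04), but -0.84 without the Ttr-rich libraries (edgeR adjusted p 0.128). With the replicate block 5 of the 16 fell, beside 2.59% of all genes in that fit, since the myelin genes Mog (-0.58), Opalin (-0.77), Ermn (-0.61) and Ugt8a (-0.61) passed as well (edgeR adjusted p 0.0426, 0.0259, 0.00763 and 0.00700). Without the Ttr-rich libraries and with no block, these 4 were at -0.13, -0.30, -0.16 and -0.05, and 0 of the list passed (edgeR adjusted p 0.918 or above for the 4). The abundant myelin gene Mbp was at -0.02 ± 0.23 (SE) and did not pass in either fit. Among 18 tested astrocyte genes 1 rose and 1 fell, beside 2.33% and 1.37% of all tested genes, and with the block 1 rose and 2 fell, beside 3.77% and 2.59%. Dio2, which activates thyroid hormone, rose from a median of 147 to 286 CPM (1.03 ± 0.13, SE, edgeR adjusted p 5.58e-07), Sox9 fell, and the water channel gene Aqp4 (-0.35) and connexin gene Gja1 (-0.32) did not pass, although Gja1 did with the block (-0.31, edgeR adjusted p 0.0274).

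Genes of fuel use, transport and the cytoskeleton followed. Of 21 tested lipid and fuel genes 3 rose and 0 fell, beside 2.33% and 1.37% of all tested genes. The risers were Plin4, the triglyceride lipase gene Pnpla2 (1.08 ± 0.19) and the cholesterol exporter gene Abca1 (0.51 ± 0.12) (log2 fold change ± SE; edgeR adjusted p 1.50e-04 for Pnpla2 and 0.00623 for Abca1). All 3 also passed without the Ttr-rich libraries, and with the block the fatty acid synthase gene Fasn fell (-0.32, edgeR adjusted p 0.0335), beside 2.59% of all genes in that fit. Of 19 tested transporter and one-carbon genes 2 rose, Mthfd2 and Slc2a1, and 2 fell, beside the same 2.33% and 1.37%. The fallers were Slc7a11, the cystine and glutamate exchanger, from a median of 175 to 119 CPM (-0.66 ± 0.16, SE), and Slc16a1, a lactate transporter, from 28.4 to 19.7 CPM (-0.64 ± 0.16, SE), with edgeR adjusted p of 0.0115 and 0.00846. The counts of this list with the block were 2 risers and 3 fallers, beside 3.77% and 2.59% of all genes. Slc7a11 and Slc16a1 missed the threshold without the Ttr-rich libraries (0.196 and 0.227 by edgeR) and without the libraries of RNA integrity under 5.

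Of 22 tested cytoskeleton and adhesion genes 6 rose and 0 fell, beside 2.33% and 1.37% of all tested genes, and the same count held without the Ttr-rich libraries. Without the libraries of RNA integrity under 5, 5 rose and 0 fell, beside 162 and 86 of 8682 genes, Phactr4 being lost. Without the libraries of low dentate level 6 rose and 1 fell, beside 199 and 154 of 8635 genes. With the block 6 rose and 1 fell, beside 3.77% and 2.59%, the faller being the integrin gene Itgb1 (-0.38, edgeR adjusted p 0.0323). Synm, an intermediate filament gene, ranged over 43.3 to 99.97 CPM after vehicle, with a median of 70.2, and 91.6 to 189.6 CPM after dexamethasone, with a median of 126. Of the dexamethasone libraries 12 lay above the vehicle range (0.94 ± 0.11, SE, edgeR adjusted p 1.76e-07). The small GTPase genes Rhou (1.07 ± 0.14) and Rhob (0.69 ± 0.09), the exchange factor gene Arhgef3 (0.48 ± 0.10) and the actin and phosphatase regulator genes Phactr3 (0.80 ± 0.13) and Phactr4 (0.79 ± 0.19) rose as well, as log2 fold changes ± SE. The edgeR adjusted p of these 5 ran from 1.41e-06 for Rhou to 0.00928 for Phactr4. Tiparp, an ADP-ribosyltransferase outside the lists, ranged over 18.4 to 51.4 CPM after vehicle, with a median of 36.4, and 53.4 to 141 CPM after dexamethasone, with a median of 85.5. Its arms did not overlap, and it rose 2.46-fold (edgeR adjusted p 2.99e-09).

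Few genes of neuronal identity and excitability passed, but so did few of all tested genes (3.70%), so that the counts of these short lists are close to that share. Of 15 tested dentate granule cell genes, 12 CA pyramidal genes and 12 interneuron genes, 0 passed by edgeR in each list, with an unadjusted p under 0.05 for 1, 2 and 2 genes. Over all tested genes the unadjusted p was under 0.05 for 1097 of 8548. With the replicate block the dentate genes Dsp (0.52) and Maml2 (0.47) passed as risers (edgeR adjusted p 0.0338 and 0.0255), beside 3.77% of all genes in that fit, and without the Ttr-rich libraries they were at 0.26 and 0.25. Prox1 was at -0.07 ± 0.25 (SE, edgeR adjusted p 0.969). The summed level of the dentate list was 411 to 3117 CPM after vehicle (median 1823) and 326 to 2799 CPM after dexamethasone (median 2089.7), so that punches of both arms differed several-fold in these RNAs. Of 18 glutamate receptor, 16 GABA and 26 calcium and sodium channel genes tested, 0 passed by edgeR, with an unadjusted p under 0.05 for 2, 1 and 2 genes. The counts with the replicate block were 0, 1 and 0.

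Among 30 tested potassium channel genes 1 rose, which is 3.33% beside 3.70% of all genes called. Kcnt1, a channel opened by sodium, ranged over 3.40 to 42.9 CPM after vehicle, with a median of 10.8, and 16.7 to 92.6 CPM after dexamethasone, with a median of 29.2. The arms overlapped, and the log2 fold change was 1.27 ± 0.31 (SE, edgeR adjusted p 0.00873), which without the Ttr-rich libraries was 1.45 (edgeR adjusted p 0.0933). With the replicate block 3 of the list rose and 1 fell, beside 6.35% of all genes called in that fit, and without the libraries of low dentate level 1 rose and 2 fell. Among them Kcnip2 rose (0.37, edgeR adjusted p 0.0459) and Kcnip3 fell (-0.45, edgeR adjusted p 0.0209); both encode proteins that bind potassium channels. Kcnip2 was at 0.11 without the Ttr-rich libraries. Of 12 tested activity-induced genes 0 passed by edgeR, with an unadjusted p under 0.05 for 3, beside 1097 of all 8548. With the block Nr4a1 (0.47) and Btg2 (0.52) passed as risers, beside 3.77% of all genes. Bdnf, the growth factor gene whose dentate expression follows activity, ranged over 74.3 to 227 CPM after vehicle, with a median of 123, and 37.9 to 229 CPM after dexamethasone, with a median of 148. The arms covered nearly the same range (-0.04 ± 0.18, SE, edgeR adjusted p 0.972). Among 11 tested neurotrophin genes the receptor genes Gfra2 (0.57 ± 0.11) and Fgfr1 (0.39 ± 0.08) rose (SE, edgeR adjusted p 0.00112 and 0.00153), beside 2.33% of all tested genes, but Fgfr1 did not pass without the Ttr-rich libraries (0.41, edgeR adjusted p 0.0838). Fgfr2 passed with the block (-0.55) and was at -0.15 without the Ttr-rich libraries. Without the libraries of low dentate level 2 of the neurotrophin list rose and 1 fell, beside 199 and 154 of 8635 genes. Ntrk2, the receptor gene for BDNF, was at 0.00 ± 0.08 (SE). Of 8 tested thalamic and habenular genes, which mark tissue below the hippocampus, Prkcd rose (0.68 ± 0.19, SE, edgeR adjusted p 0.0255), beside 2.33% of all tested genes. With the block Rora, Plekhg1 and Adarb1 rose too, beside 3.77% of all genes in that fit, and without the Ttr-rich libraries 0 passed (Prkcd 0.83, edgeR adjusted p 0.156). Of the 8 values 4 were below 0 (list median 0.04), with an unadjusted p under 0.05 by edgeR for 4 higher and 2 lower genes. The summed level of the list was 353 to 1424 CPM after vehicle (median 540) and 425 to 881 CPM after dexamethasone (median 554).

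The choroid plexus content of the punches was then set beside the arms. Of the 18 listed genes, 4 had enough counts in enough libraries to be tested, and 0 of them passed by edgeR (0 at an unadjusted p under 0.05, and 0 with the replicate block). Ttr (ENSMUSG00000061808) had a log2 fold change of -0.90 ± 0.82 (SE, edgeR adjusted p 0.768). Enpp2, which encodes autotaxin and is also made in the choroid plexus, was at -0.76 ± 0.58 (SE), and the anti-ageing gene Kl at -0.61 ± 0.44 and Igfbp2 at -0.57 ± 0.33 (SE). All 4 values were below 0. The summed level of the list was 235 to 17509 CPM after vehicle (median 2302) and 209 to 21296 CPM after dexamethasone (median 532), and its share of a library's deposited counts ran from 0.0201% to 2.11%. Defining genes were at or near 0 in many punches: Folr1 had no count in 5 vehicle and 8 dexamethasone libraries. Ependymal genes, which mark the ventricle wall, summed to 10.8 to 306 CPM after vehicle (median 100.4) and 6.04 to 432 CPM after dexamethasone (median 41.1), and 0 of 12 reached the level needed for a test. The count of changed genes was 285 with the Ttr level as a covariate (183 higher and 102 lower), 270 of which were among the 316.

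**Figure D4:**
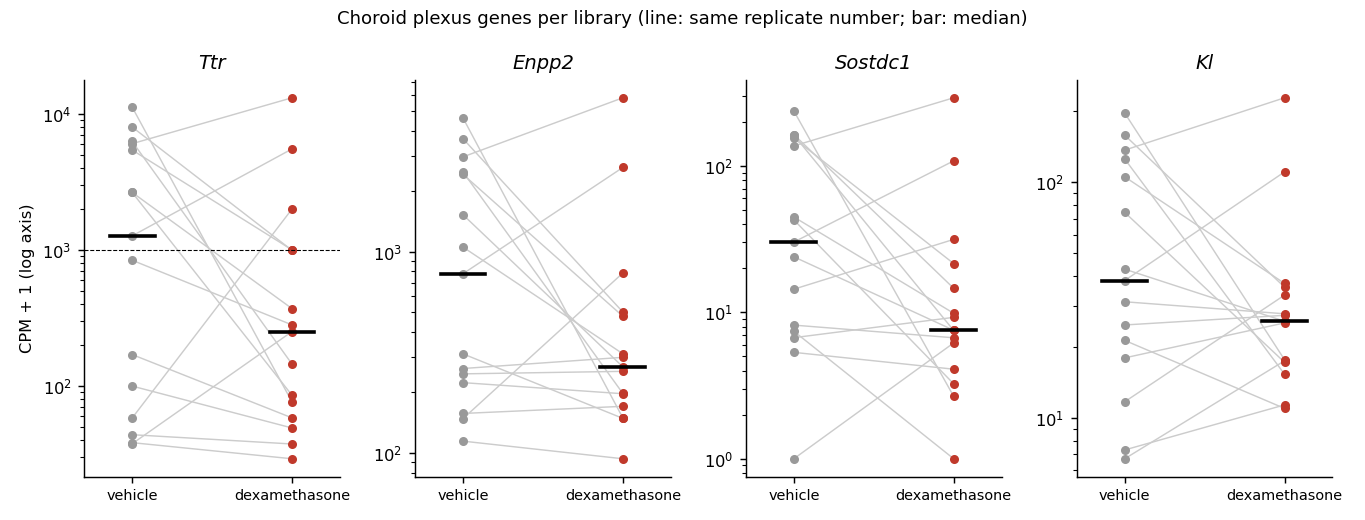
Each dot is 1 dorsal dentate gyrus library, with the level of a choroid plexus gene on a log axis (CPM + 1), grey lines joining libraries of the same replicate number and bars at the medians; the dashed line in the Ttr panel marks 1000 CPM. Ttr, Enpp2, Sostdc1 and Kl vary together, the vehicle median of Ttr is 1268 CPM and the dexamethasone median 249.6 CPM, and the arms overlap over most of the range.

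The libraries carry replicate numbers from 1 to 15 in each arm, and libraries of the same number shared a plate, a lane and neighbouring rows in 15 of 15 pairs. With the number as a block, 543 of 8548 genes passed (6.35%), 322 higher (3.77%) and 221 lower (2.59%). Of the 316 genes called without it 315 passed again, and 228 were gained, 123 higher and 105 lower. The gained genes had smaller responses, with a median of 1.32-fold, and 221 of them had an unadjusted p under 0.05 without the block. The block reduced the standard error of 85.2% of all genes. The median ratio of the standard error with the block to that without it was 0.896 over all genes and 0.801 over the gained genes. The share of the spread between libraries that went with the number (the intraclass correlation) had a median of 0.23 over all genes, 0.25 over the genes called without the block and 0.39 over the gained genes. The gained genes were selected by passing with the block, so that their values here, and their pair counts below, are not independent evidence. With both the Ttr level and the block in the fit 395 genes passed, and 86 of the 228 gained genes were among them.

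Among the gained genes the smallest adjusted p was that of Camk1g, a calcium-dependent kinase gene of neurons. It ranged over 8.49 to 57.9 CPM after vehicle, with a median of 22.7, and 13.0 to 90.7 CPM after dexamethasone, with a median of 40.7. The arms overlapped, but the dexamethasone library was higher in 13 of 15 pairs, and the adjusted p went from 0.0501 without to 4.67e-04 with the block in edgeR (0.78 ± 0.14, SE). Arhgap39, a GTPase regulator gene of dendritic spines, was higher in 14 of 15 pairs (0.46 ± 0.08, SE; edgeR adjusted p 0.117 without and 5.53e-04 with the block). Exoc6b, a subunit gene of the exocyst, was higher in 14 pairs (0.51 ± 0.10, SE, edgeR adjusted p 0.00158). Another 4 were lower. Phldb1 fell from a median of 58.6 to 30.2 CPM and was lower in 14 of 15 pairs (-0.68 ± 0.13, SE, edgeR adjusted p 6.92e-04). Without the Ttr-rich libraries and with no block, Phldb1 was at -0.21 (edgeR adjusted p 0.903) and Pllp at -0.29 (edgeR adjusted p 0.859). With both the Ttr level and the block, over all libraries, Phldb1 and Pllp were at -0.61 and -0.67 (edgeR adjusted p 0.00914 and 0.00734). With the block Pllp, a myelin membrane gene, (-0.66 ± 0.14), Dlc1, a GTPase-activating gene, (-0.48 ± 0.09) and Lasp1, an actin-binding gene, (-0.51 ± 0.10) were lower in 13, 14 and 14 pairs (SE; edgeR adjusted p 0.00203, 9.59e-04 and 0.00190).

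**Figure D5:**
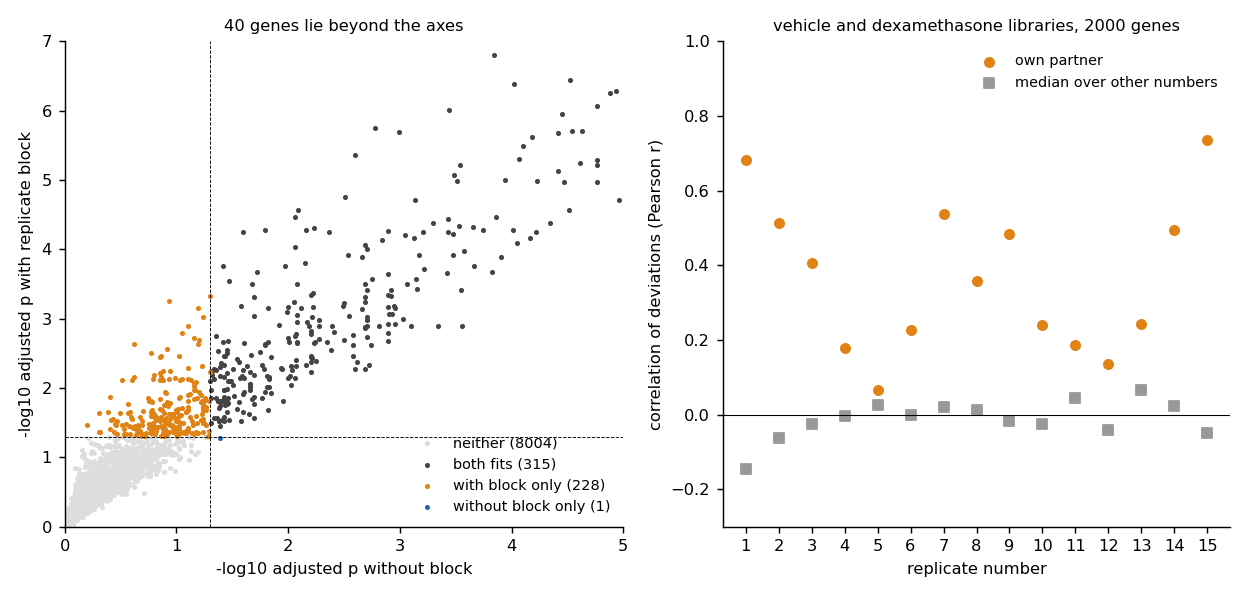
The left panel sets the -log10 adjusted p of each gene without the replicate block (x axis) against that with it (y axis), with dashed lines at an adjusted p of 0.05: 315 genes pass in both fits and 228 with the block only. The right panel gives, for each replicate number, the Pearson correlation between the deviations of its 2 libraries from their arm means over 2000 genes (orange) and the median correlation with libraries of other numbers (grey): 14 of 15 own-number values exceed 0.1, and the grey medians lie near 0. Single correlations between other numbers, not drawn, run from -0.689 to 0.696.

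Whether the response in dDG differed from that elsewhere was tested with interaction terms in edgeR, with the animal as a block, since each mouse gave punches of several regions. Against vDG, 0 of 9782 genes passed (387 at an unadjusted p under 0.05, smallest adjusted p 0.999). Against dCA1, 0 of 9418 passed (527 at an unadjusted p under 0.05, smallest adjusted p 0.205). These counts were also 0 without the animal block, with upper-quartile scaling, with 10 counts demanded in every library, with the Ttr level as a covariate and without the 2 dDG libraries of low dentate level. They do not show that the responses were equal, and the dCA1 punches shared the dentate markers. The genes with the smallest p were Smim3, Fkbp5 and Gas1 against vDG and Tiam1, Fzd4 and Eif4a2 against dCA1.

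Against the mean response of the 7 other regions, 11 of 11053 genes passed (0.0995%), 3 with a higher and 8 with a lower value in dDG. Without the 2 dDG libraries of low dentate level 18 passed, 6 higher and 12 lower, and each of the 11 was among them. The values given with an SE are the differences between the log2 fold change in dDG and the mean of the others. Fkbp5 rose less in dDG, by 1.65 on the log2 scale against 1.66 (dCA1) to 2.79 (PFC) elsewhere, a difference of -0.81 ± 0.13 (SE, edgeR adjusted p 1.77e-05). Zbtb16, a zinc finger repressor gene, rose by 0.82 in dDG and by 0.93 (dCA1) to 2.21 (PVN) elsewhere (-0.68 ± 0.13, SE, edgeR adjusted p 0.00180). Smim3, a small membrane protein gene, rose by 1.09 in dDG and by 1.39 to 2.38 elsewhere (-0.71 ± 0.14, SE, edgeR adjusted p 0.00370). Tead1, a transcription factor gene of the Hippo pathway, was at 0.29 in dDG, which did not pass there, and at 0.23 (dCA1) to 1.21 (AMY) elsewhere (-0.58 ± 0.12, SE, edgeR adjusted p 0.00761). Fzd4, a Wnt and norrin receptor gene, was at 0.39 in dDG against 0.91 to 1.54 (-0.74 ± 0.16, SE, edgeR adjusted p 0.0125). In dDG without the Ttr-rich libraries Fzd4 was at 0.84 (edgeR adjusted p 0.0461).

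The 3 genes with higher values were Ptchd4, a gene related to the hedgehog receptor, Parp1, which senses DNA breaks, and Ppif, a mitochondrial cyclophilin gene. In dDG Ptchd4 ranged over 29.8 to 144 CPM after vehicle, with a median of 71.9, and 64.2 to 201 CPM after dexamethasone, with a median of 145. Its log2 fold change was 0.86 there, 0.59 in dCA1 and 0.61 in vCA1, and between -0.27 and 0.19 in the remaining 5 regions (0.74 ± 0.16, SE, edgeR adjusted p 0.00761). Parp1 ranged over 48.5 to 109 CPM after vehicle, with a median of 75.3, and 61.3 to 191 CPM after dexamethasone, with a median of 123. It was at 0.69 in dDG and -0.22 to 0.54 elsewhere (0.52 ± 0.12, SE, edgeR adjusted p 0.0128), and Ppif at 0.72 and -0.13 to 0.53 (0.62 ± 0.14, SE, edgeR adjusted p 0.0137). For Parp1 and Ppif the highest of the other values was that of dCA1. Cbfa2t3 fell more in dDG, at -1.25 against -0.98 (dCA1) to -0.13 (AMY) in the 6 other regions that tested it (-0.84 ± 0.19, SE, edgeR adjusted p 0.0128). Gjb2, a connexin gene, and Rbm47, an RNA-binding protein gene, had too few counts for the test within dDG. Gjb2 had medians of 14.1 CPM after vehicle and 3.09 CPM after dexamethasone in dDG (-1.58 ± 0.34, SE, edgeR adjusted p 0.0125). It could be tested on its own in 2 other regions, with log2 fold changes of -1.37 in vDG and -1.75 in PFC. Rbm47 had medians of 13.0 and 9.12 CPM (-1.51 ± 0.29, SE, edgeR adjusted p 0.00219), and it was tested on its own in no region.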

How the data were processed

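The deposited counts hold UMI-tagged 3′ mRNA reads (QuantSeq) per gene, 1 column per library. Per the submitters' processing notes the authors used FastQC 0.11.4, cutadapt, UMI-tools 0.5.4, STAR 2.6.0a, featureCounts 1.6.4, DESeq2 1.30.1 and R 4.0.5 with mm10. The strand setting and the treatment of reads shared by genes, such as those of the related Mt1 and Mt2, are not given in the sources used here. The deposited log2 values are variance-stabilised by the authors, per the file name, and served as an alternative only. Counts of the 30 dDG libraries were tested with edgeR 4.0.16 (R 4.3.3): genes were filtered by arm with filterByExpr, scaled by TMM, fitted by quasi-likelihood with arm as the factor, with Benjamini-Hochberg adjustment over all genes and a threshold of 0.05. DESeq2 1.42.0, limma 3.58.1 and sva 3.50.0 gave alternatives. Interaction fits used all regions compared with the animal as a block, and were tested, like the main design, on simulated data. Each library is a separate mouse within its arm, per the labels. No pair of libraries of the same arm agreed within counting noise, and pairs across the arms were not compared in this way.

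The members and lists were chosen with earlier results of these data known. Named genes are the 15 risers and 15 fallers with the smallest p and a mean of at least 5 CPM, list members with their values, the 8 genes gained with the replicate block with the smallest adjusted p, the leading 3 genes by p of every interaction fit, and the choroid plexus list. All 11 genes that differed from the mean of the other regions were named as well. Some genes that this rule names are not reported here.

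Same-numbered libraries are different mice, but the labels place both in the same plate and lane in 15 of 15 pairs, and give them 1 punching date in 14 of 15. Their deviations from the arm means correlated at 0.0665 to 0.735 (median 0.359, 2000 genes), over 0.1 in 14 of 15 pairs, against a median of 0.00426 for other numbers, 0.100 for other numbers of the same plate and 0.142 for other numbers of the same date. Single correlations between other numbers ran from -0.689 to 0.696. Of 30 libraries 12 correlated best with their own number. The pairing is taken from the labels' plate and lane, not from these correlations. The alternatives covered normalisation, filters, covariates, depth, left-out libraries and the test.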

Additional observations from a re-analysis of the deposited data

Results flagged for a closer look

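The response in dDG differed from the mean response of the 7 other regions for 11 genes, by an interaction test in edgeR with Benjamini-Hochberg adjustment over 11053 genes. On the log2 scale the difference (dDG minus the mean of the others) was -0.81 ± 0.13 for Fkbp5, -0.68 ± 0.13 for Zbtb16, -0.71 ± 0.14 for Smim3, -0.58 ± 0.12 for Tead1 and -0.74 ± 0.16 for Fzd4 (± SE). It was -0.84 ± 0.19 for Cbfa2t3, -1.51 ± 0.29 for Rbm47 and -1.58 ± 0.34 for Gjb2. It was above 0 for Ptchd4 (0.74 ± 0.16), Ppif (0.62 ± 0.14) and Parp1 (0.52 ± 0.12). Where each library had to hold at least 10 counts, 1 gene passed. In dCA1 the log2 fold change was close to that in dDG for Fkbp5 (1.66 against 1.65) and Tead1 (0.23 against 0.29), and without the Ttr-rich libraries that of Fzd4 in dDG went from 0.39 to 0.84. Each of the 11 passed without the animal block, with upper-quartile scaling and with the Ttr level as a covariate.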

How the results depend on the processing

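Of 8548 genes 316 passed in dDG. The count was 188 where each library had to hold at least 10 counts, 122 of the 316 then being untested, and 158 with counts thinned to a common total of 388915 (7010 genes tested). It was 557 with 6 surrogate variables. In alternatives chosen after seeing the data, it was 166 without libraries of at least 1000 CPM Ttr, where the share that rose went from 63.0% to 77.7%, and 479 by limma on the authors' variance-stabilised values. With upper-quartile scaling 312 passed (182 higher, 130 lower), with DESeq2 360, with the Ttr level as a covariate 285, and without libraries of RNA integrity under 5, also chosen after seeing the data, 248. The causes were not tested where none is named. The 316 genes, which were called on these same libraries, kept their direction in each alternative in which they were tested.

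With the replicate block 543 genes passed, Gdf11, named after its values were seen, being the 1 lost, and 480 passed with the block over the 14 pairs of 1 punching date, which was chosen after seeing the data. For the glucocorticoid, receptor, insulin, MAPK, Notch, CA pyramidal and interneuron lists the counts with the block equalled those without it.

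The Ttr difference, which passed in no fit, was -0.90 on the log2 scale, with dexamethasone lower in 11 of 15 pairs. It was -1.55 with the replicate block and -1.90 with date and plate as factors, but 0.23 with the choroid plexus level as a covariate and 0.53 without the Ttr-rich libraries, which were left out by that gene's own level. The test against the mean of the other regions gave 1 gene where each library had to hold 10 counts, and 18 without the 2 dDG libraries of dentate level under 4, an alternative chosen after seeing the data, with which 353 genes passed in dDG itself. The 15 leading risers passed in all 277 alternative values and the 15 leading fallers in 276 of 277, Ptch1 without the Ttr-rich libraries being the exception. Of 61 list members that passed, 38 did so in every alternative that tested them. No fit leaving out 1 replicate at a time was run, the arms holding 15 each. Without a filter on low counts 18819 genes were tested and 459 passed.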
